A study of Mus musculus with 18 samples.

Results

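The interferon-inducible GTPases were followed through 10 genes: Gbp2, Gbp3, Gbp5, Gbp7 and Gbp9, which encode guanylate-binding proteins (GBPs), and Irgm1, Irgm2, Igtp, Iigp1 and Tgtp1, which encode immunity-related GTPases (IRGs). They were chosen by symbol, and all 10 were found among the 53465 genes counted. RNA-seq had been done on microglia and macrophages sorted from the contused thoracic spinal cord of adult female C57BL/6J mice aged 8 to 10 weeks. The mice of a group are its replicates, so that p-values measure the spread between mice. All mice were injured, and 48 h later the lesion epicenter was injected with PBS (mice 1, 2 and 3), with 100 ng of recombinant IL-13 (rIL-13, mice 5, 6 and 7) or with 100 ng of recombinant IL-4 (rIL-4, mice 8, 9 and 10). Cells were collected 24 h after the injection, and each mouse gave 1 microglia library, sorted as CD45 low, and 1 macrophage library, sorted as CD45 high, both also positive for CD11b and F4/80, so that 18 libraries came from 9 mice. No uninjured mice are among the 6 groups.

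GBPs and IRGs are GTPases of cell-autonomous immunity. They are induced mainly by interferon gamma (IFN-γ), which acts through its receptor and the kinases JAK1 and JAK2, and many are also induced by type I interferons. GBPs coat bacteria and pathogen-containing vacuoles and help to activate inflammasomes. Among the IRGs, Iigp1 (Irga6) and Tgtp1 (Irgb6) encode effectors that are loaded onto vacuoles, while Irgm1, Irgm2 and Igtp (Irgm3) encode regulators that sit on the cell's own membranes and hold the effectors inactive. IL-4 and IL-13 signal through STAT6 and are known to oppose the IFN-γ response of macrophages.

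Gbp2, Gbp3, Gbp5 and Gbp7 lie in a cluster on the plus strand of chromosome 3 (GRCm38, GENCODE annotation): Gbp5 at chr3:142493978-142522344, Gbp7 at chr3:142530342-142550149, Gbp3 at chr3:142560026-142573209 and Gbp2 at chr3:142620602-142638008. Gbp9 is apart from them at chr5:105077630-105139539, on the minus strand. Igtp (chr11:58199556-58207591) and Irgm2 (chr11:58199618-58222782) overlap on the plus strand of chromosome 11, where Irgm1 (chr11:48861968-48871683) and Tgtp1 (chr11:48985327-48994172) lie on the minus strand. Iigp1 is on chromosome 18.

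The promoter sequences are shown because the genes share short interferon-response letters just before their starts. RefSeq promoters (GRCm38.p6) were at hand for 8 of the 10 genes, all except Gbp9 and Iigp1, and the 250 bases before each start were searched. The letters searched on both strands were those of an interferon-stimulated response element (ISRE), which is GAAA, any 2 bases and GAAA again (TTTC, any 2 bases and TTTC on the other strand), and those of an IFN-γ activated site (GAS), the palindrome TTCNNNGAA. The 8 genes have 9 promoters in the table, and the ISRE letters were found in 8 of the 9, against 2.98% of 32851 promoters. A second promoter of Gbp3 (chr3:142560106-142560355) held neither motif. The GAS letters were found in 5 of the 9 (Gbp5, Gbp7, Igtp, Irgm2 and Tgtp1), against 7.02%, and both motifs in the same 5, against 0.332%. The 30 bases around the ISRE letters read as follows, 5′ to 3′ in each gene's direction, with the matched letters in capitals. No motif of one kind overlaps one of the other kind, while the paired matches of Irgm1 and of Gbp3 share 4 bases with each other.

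Igtp (chr11:58199506-58199535): gccatTTCTAGGAActGAAACTGAAAgctg

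Irgm2 (chr11:58214897-58214926): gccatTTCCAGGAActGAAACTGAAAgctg

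Tgtp1 (chr11:48992310-48992339): gccatTTCCAGGAAtcGAAACTGAAAccta

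Irgm1 (chr11:48871428-48871457): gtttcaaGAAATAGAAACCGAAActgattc

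Gbp7 (chr3:142530273-142530302): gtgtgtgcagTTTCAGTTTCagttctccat

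Gbp3 (chr3:142559992-142560021): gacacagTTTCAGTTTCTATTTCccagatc

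Gbp5 (chr3:142496759-142496788): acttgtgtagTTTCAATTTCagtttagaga

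Gbp2 (chr3:142620594-142620623): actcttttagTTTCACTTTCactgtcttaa

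In Igtp, Irgm2 and Tgtp1 the GAS letters stand just before the ISRE letters, in the same order and with the same spacing, and the ISRE letters are the same GAAACTGAAA in all 3. The whole 250 bases of the Gbp7 promoter (chr3:142530086-142530335, plus strand) show another arrangement, in which a pair of GAS matches stands farther upstream of the ISRE match. In Gbp5 the ISRE match lies between its GAS matches.

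Gbp7: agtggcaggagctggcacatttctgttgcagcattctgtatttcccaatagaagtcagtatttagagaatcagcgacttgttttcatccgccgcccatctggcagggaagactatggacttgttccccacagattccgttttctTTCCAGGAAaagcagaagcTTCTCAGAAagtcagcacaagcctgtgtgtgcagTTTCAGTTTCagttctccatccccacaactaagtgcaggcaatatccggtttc

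A match is a run of letters and not a measured binding site. The window of Irgm1 and 22 bases of that of Gbp2 fall in exons of the GENCODE annotation.

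Each library held between 35961305 and 45849829 counts. The labels were checked against marker lists summed as CPM, the counts scaled to the library total times a TMM factor that corrects for RNA composition. The sum of 8 microglia markers was 5501 to 9984 CPM in PBS microglia and 2613 to 3729 CPM in PBS macrophages, so that the macrophage gate was not free of them. In rIL-4 microglia it was 2251 to 3848 CPM, which overlaps the PBS macrophages. The sum of 8 markers of monocyte-derived macrophages was 3200 to 4200 CPM in PBS microglia, 17029 to 26840 CPM in rIL-4 microglia and 25039 to 26615 CPM in PBS macrophages. That list holds Chil3, which is also an IL-4 and IL-13 response gene. Without Chil3, a sum chosen after seeing the data, the other 7 markers had 3150 to 3949 CPM in PBS microglia, 2157 to 4937 CPM in rIL-13 microglia, 3102 to 6209 CPM in rIL-4 microglia and 21414 to 23722 CPM in PBS macrophages. Markers of other cells were not evenly spread: 6 endothelial markers summed to 710 to 1584 CPM in PBS microglia and 38.5 to 50.2 CPM in PBS macrophages, and 8 fibroblast and pericyte markers to 2279 to 3318 CPM and 4.23 to 7.86 CPM. The rIL-13 microglia of mouse 6 had the highest fibroblast and pericyte sum of the 18 libraries, 7198 CPM. In a bulk library, fewer cells of a type and less RNA per cell cannot be told apart. Sharing of sequence also limits the values. Of the 76-base words in the transcripts of Tgtp1, 77.1% are found in another gene, mostly Tgtp2, and reads of this pair are divided by estimate. The share was 11.2% for Gbp7, mostly with the overlapping pseudogene Gm43802, 7.66% for Igtp, 4.66% for Irgm2, 3.47% for Gbp9, 2% for Gbp3, 0.915% for Gbp2, 0.535% for Gbp5 and 0 for Irgm1 and Iigp1. Gbp9 overlaps Gbp4 and Gbp8 on the same strand, and Tgtp1 overlaps Olfr56 on the other strand, which these unstranded libraries cannot separate.

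Levels between genes were compared as CPM per kilobase of exon. In PBS microglia, Gbp2 led with 17.0 ± 2.90 CPM per kb (SD, n = 3), followed by Igtp (15.0 ± 1.80), Irgm1 (11.5 ± 1.10), Gbp3 (11.1 ± 1.29), Irgm2 (8.96 ± 1.66) and Gbp7 (6.09 ± 0.40). Gbp9 (3.52 ± 1.41), Tgtp1 (2.73 ± 2.05), Iigp1 (2.33 ± 0.47) and Gbp5 (0.895 ± 0.301) came last. Within this order the mean ± SD of Gbp2 and Igtp overlapped, as did those of Irgm1, Gbp3 and Irgm2 from one to the next and those of Gbp9, Tgtp1 and Iigp1, and the wide spread of Tgtp1 also took in Gbp5. In PBS macrophages the IRG regulators led: Igtp had 13.4 ± 5.26 and Irgm1 9.93 ± 3.66 CPM per kb, with overlapping spreads. Irgm2 (4.90 ± 0.82), Gbp2 (4.61 ± 2.20) and Gbp3 (4.34 ± 1.42) overlapped each other below them, then came Gbp7 (1.96 ± 0.70) and Gbp9 (1.57 ± 0.54), which overlapped as well. The spread of Gbp2 also reached those of Irgm1 above and of Gbp7 below. The effectors Iigp1 (0.169 ± 0.033) and Tgtp1 (0.166 ± 0.113) and the GBP Gbp5 (0.121 ± 0.061) were lowest and overlapped each other. Igtp and Irgm1 kept the first and the second place in the macrophages of all 3 treatments, and Gbp2 and Igtp in the microglia.

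Summed over the 10 genes, PBS microglia had 289.9 ± 9.57 CPM (SD, n = 3), rIL-13 microglia 285.0 ± 85.4 CPM and rIL-4 microglia 294.8 ± 73.9 CPM. The 3 means lie close together, and the mice of the cytokine groups spread more widely than those of the PBS group. In macrophages the sum was 150.1 ± 51.4 CPM with PBS, 92.9 ± 14.9 CPM with rIL-13 and 84.2 ± 11.2 CPM with rIL-4. The PBS macrophages of mouse 3 were highest with 202.0 CPM and those of mouse 1 lowest with 99.1 CPM, which lies inside the range of the rIL-13 group. GBPs made up between 39.4% and 55.1% of this sum in the 9 microglia libraries and between 15.0% and 37.5% in the 9 macrophage libraries. The levels by library show these patterns gene by gene.

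**Figure D1:**
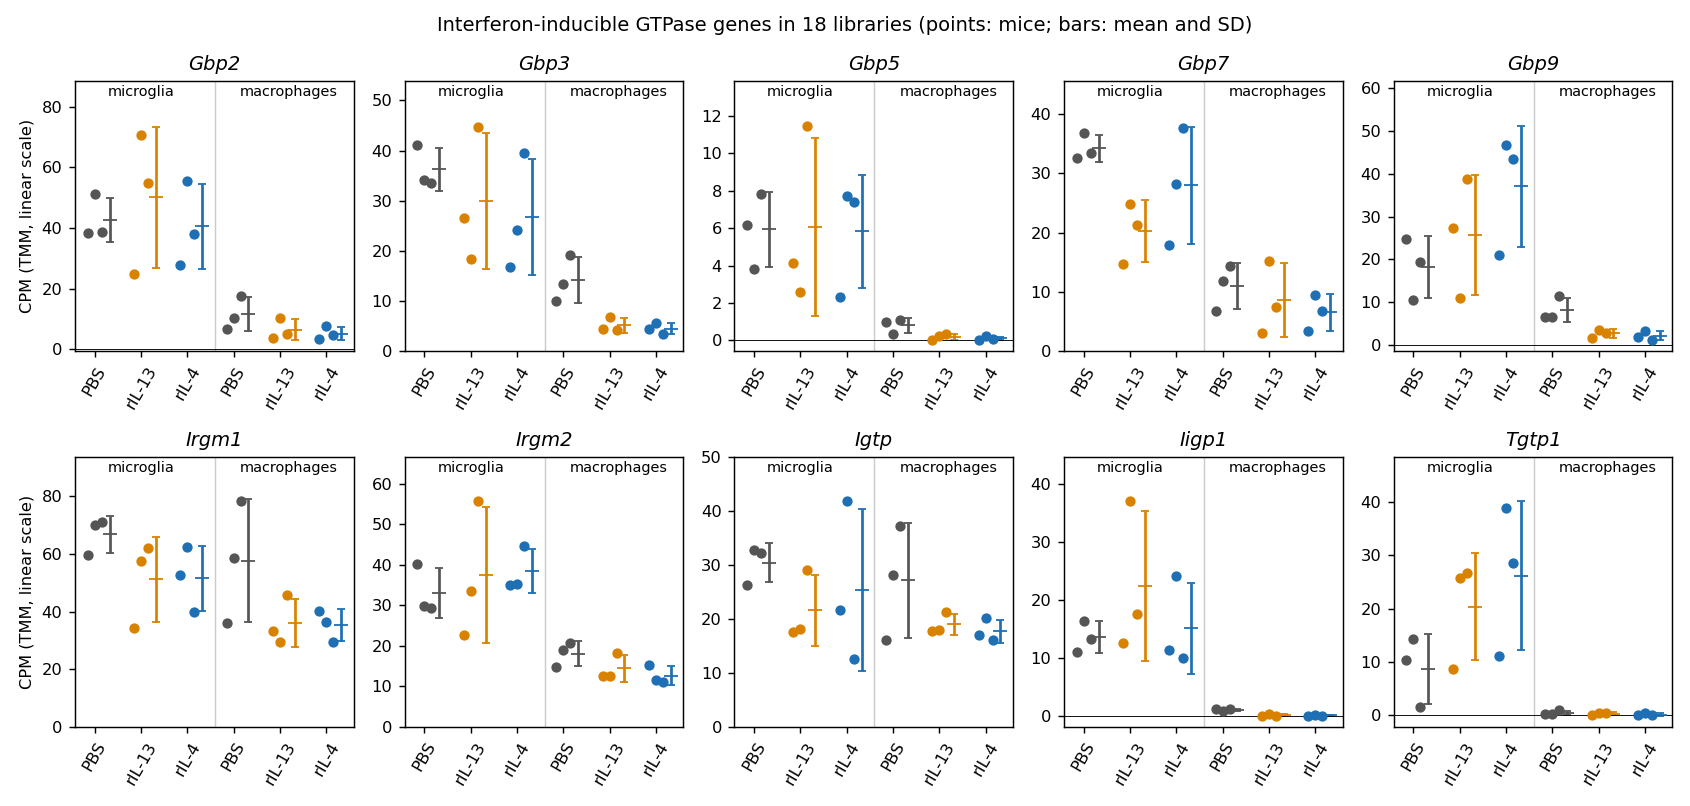
Level of each GTPase gene in CPM (linear axis) in the 18 libraries, by treatment and cell type, with points for mice and bars for the mean ± SD of 3 mice. Iigp1 and Tgtp1 lie near 0 in all macrophage libraries, while Irgm1 and Igtp reach similar levels in both cell types.

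The first question was whether rIL-4 or rIL-13 changed these genes in macrophages. With rIL-4, Gbp3 and Gbp9 fell relative to PBS, and no GTPase gene rose. All 10 log2 fold changes were negative, with a median of -1.42, against 0.02 over all 13606 genes tested. The 2 called genes, both lower, compare with 14% of all genes called in either direction and 7.2% called lower, so that the count of calls by itself is near the background. At an unadjusted p under 0.05 there were 8 of the 10 genes, against 27.9% of all genes. With rIL-13, Gbp3 alone fell. The 10 log2 fold changes were again all negative, with a median of -0.79, and 4 had an unadjusted p under 0.05, against 17.9% of all genes. Among all genes 4.19% were called with rIL-13, and 1.66% were called lower. Both comparisons share the PBS libraries.

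Gbp3, a GBP of the chromosome 3 cluster, had 9.98, 13.4 and 19.2 CPM in the macrophages of PBS mice 1, 2 and 3. It had 4.38, 6.88 and 4.25 CPM in rIL-13 mice 5, 6 and 7 and 4.45, 5.61 and 3.33 CPM in rIL-4 mice 8, 9 and 10. Every cytokine library was below every PBS library. The log2 fold change was -1.67 ± 0.31 (SE) with rIL-4 (edgeR's quasi-likelihood test, adjusted p = 0.00579) and -1.45 ± 0.31 with rIL-13 (adjusted p = 0.0287). The rIL-4 call of Gbp3 held without each mouse in turn. The rIL-13 call was lost without mouse 2 (adjusted p = 0.0781), mouse 3 (0.123), mouse 5 (0.0952) or mouse 7 (0.106), with log2 fold changes between -1.49 and -1.17, and when all 18 libraries entered one model (-1.45, adjusted p = 0.0676).

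Gbp9, the member on chromosome 5, had 6.56, 6.44 and 11.3 CPM in PBS macrophages, 1.65, 3.60 and 2.81 CPM with rIL-13 and 1.81, 3.37 and 1.28 CPM with rIL-4. Again the cytokine groups did not overlap the PBS group. Its log2 fold change was -1.92 ± 0.42 with rIL-4 (edgeR, adjusted p = 0.0146). With rIL-13 it was -1.59 ± 0.42, which did not pass the threshold (adjusted p = 0.0675), though it did by DESeq2's Wald test (0.00527), without the low-count filter (0.0165) and without mouse 9 (0.0337). The rIL-4 call of Gbp9 was lost without mouse 3 (log2 fold change -1.59, adjusted p = 0.0668), mouse 8 (-1.80, 0.0505) or mouse 10 (-1.64, 0.0553).

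Gbp5, a GBP known for its part in NLRP3 inflammasome activation, was counted 35, 11 and 39 times in the macrophages of PBS mice 1, 2 and 3. The counts were 0, 8 and 12 with rIL-13 and 1, 8 and 3 with rIL-4. Iigp1, an effector IRG, was counted 39, 25 and 39 times with PBS, 0, 11 and 0 times with rIL-13 and 0, 4 and 0 times with rIL-4. In CPM, neither gene's cytokine groups overlapped its PBS group, but for Gbp5 with rIL-13 this rests on 0.336 CPM in PBS mouse 2 against 0.334 CPM in rIL-13 mouse 7. Without the TMM factors, a scaling chosen after seeing the data, these values were 0.3018 and 0.3024 CPM, and the groups of Gbp5 overlapped. The fitted log2 fold changes depend on the prior count at such low values: with rIL-4 they were -2.94 ± 1.04 for Gbp5 (adjusted p = 0.0904) and -4.72 ± 1.41 for Iigp1 (0.0506), and with rIL-13 -2.04 ± 0.99 (0.322) and -3.14 ± 1.26 (0.219). None passed the threshold there. The calls depended on the setting. With rIL-4, DESeq2's Wald test called both genes (adjusted p = 0.0344 for Gbp5 and 0.0137 for Iigp1), as did edgeR on only the 6 libraries compared (0.0448 and 0.0140), and edgeR called Iigp1 without the low-count filter (0.0199) and with all 18 libraries in one model (0.0117). Iigp1 was also called with rIL-4 without mouse 5 (0.0478), mouse 6 (0.0181), mouse 7 (0.0484) or mouse 9 (log2 fold change -8.14, 0.0446), and with rIL-13 without mouse 6 (-8.15, 0.0464). Mouse 9 and mouse 6 hold all Iigp1 counts of their groups. Gbp5 was called with rIL-4 without mouse 5 (0.0499). Groups without overlap were thus found for 4 of the 10 genes with each cytokine (Gbp3, Gbp5, Gbp9 and Iigp1), or for 3 with rIL-13 without the TMM factors, against 34.7% of all genes with rIL-4 and 24.5% with rIL-13.

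Tgtp1, the other effector IRG, was counted 10, 12 and 34 times with PBS, 1, 15 and 17 times with rIL-13 and 0, 18 and 0 times with rIL-4, and its groups overlapped. Its log2 fold change with rIL-4 was -1.77 ± 1.33 (adjusted p = 0.437) and with rIL-13 -0.73 ± 1.27 (0.830). Without mouse 9, which holds all 18 counts of the rIL-4 group, Tgtp1 was called lower with rIL-4 (-7.26, adjusted p = 0.0390). Reads of Tgtp1 and Tgtp2 are hard to separate, and with their counts summed the pair was called lower with rIL-4 (-2.31, edgeR adjusted p = 0.0222). Gbp2 had 6.73, 10.4 and 17.6 CPM with PBS, 3.81, 10.3 and 5.00 CPM with rIL-13 and 3.23, 7.62 and 4.66 CPM with rIL-4. Its log2 fold change was -1.17 ± 0.46 with rIL-4 (adjusted p = 0.124) and -0.86 ± 0.46 with rIL-13 (0.374). Gbp7 had 6.70, 11.9 and 14.4 CPM with PBS, 3.03, 15.3 and 7.40 CPM with rIL-13 and 3.33, 9.47 and 6.81 CPM with rIL-4. The groups of Gbp2 and of Gbp7 overlapped, and mouse 6 was the highest of the rIL-13 group for both, as it was for neutrophil and astrocyte markers, given below. The log2 fold change of Gbp7 was -0.76 ± 0.54 with rIL-4 (adjusted p = 0.408) and -0.35 ± 0.54 with rIL-13 (0.799).

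The 3 IRG regulators had the smallest fitted differences with rIL-4. Irgm1 had 35.9, 58.8 and 78.4 CPM with PBS, 33.2, 29.3 and 45.6 CPM with rIL-13 and 40.2, 36.2 and 29.3 CPM with rIL-4. Its log2 fold change was -0.71 ± 0.28 with rIL-4 (adjusted p = 0.120) and -0.67 ± 0.28 with rIL-13 (0.232). Igtp had 16.1, 28.0 and 37.3 CPM with PBS, 17.8, 17.9 and 21.2 CPM with rIL-13 and 17.1, 20.1 and 16.0 CPM with rIL-4. PBS mouse 1 was as low as the cytokine groups for both genes, and the PBS libraries spread more than the others. The log2 fold change of Igtp was -0.61 ± 0.26 with rIL-4 (adjusted p = 0.152) and -0.51 ± 0.26 with rIL-13 (0.352). Without PBS mouse 1, Irgm1 and Igtp were called lower with rIL-4, beside Gbp3 and Gbp9. Irgm2 had 14.8, 18.9 and 20.7 CPM with PBS, 12.5, 12.5 and 18.4 CPM with rIL-13 and 15.2, 11.6 and 11.0 CPM with rIL-4, and its log2 fold change was -0.52 ± 0.22 with rIL-4 (adjusted p = 0.157) and -0.32 ± 0.22 with rIL-13 (0.522).

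Microglia markers moved with the treatment in these macrophage libraries: their sum was 2613 to 3729 CPM with PBS, 1051 to 2224 CPM with rIL-13 and 457 to 825 CPM with rIL-4, with all 8 detected in each group. The endothelial sum moved the other way, from 38.5 to 50.2 CPM with PBS to 109 to 184 CPM with rIL-13 and 157 to 330 CPM with rIL-4. The monocyte-derived macrophage sum was 25039 to 26615 CPM with PBS, 67922 to 96864 CPM with rIL-13 and 105174 to 124426 CPM with rIL-4, and without Chil3 it was 21414 to 23722, 11937 to 25415 and 14034 to 21013 CPM. Astrocyte markers (6 of 6 detected) went from 11.4 to 14.9 CPM to 54.7 to 394 CPM and 54.7 to 495 CPM, and fibroblast and pericyte markers from 4.23 to 7.86 CPM to 3.07 to 7.06 CPM and 0.230 to 0.809 CPM. Oligodendrocyte markers (6 of 6 detected) summed to 180 to 208 CPM with PBS, 132 to 147 CPM with rIL-13 and 129 to 140 CPM with rIL-4. The sum of 8 neutrophil markers, all detected in each group, was 651 to 1228 CPM with PBS, 464 to 2889 CPM with rIL-13 and 220 to 762 CPM with rIL-4. The neutrophil and astrocyte sums were highest in mouse 6 of the rIL-13 group (2889 and 394 CPM) and in mouse 9 of the rIL-4 group (762 and 495 CPM). The same libraries were the highest of their groups for Gbp2, Gbp3, Gbp7, Gbp9 and Iigp1. The part of these lists in the GTPase differences was not tested.

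In microglia none of the 10 genes was called with either cytokine. Among all 15566 genes tested, 2.22% were called with rIL-4 and 0.366% with rIL-13. At an unadjusted p under 0.05 there was no GTPase gene with rIL-4, against 16.4% of all genes, and 1 with rIL-13, Gbp7, against 7.76%. DESeq2's Wald test called none with either, where it called 8.09% of all genes with rIL-4 and 2.19% with rIL-13. No gene's groups were without overlap with rIL-4, against 25.9% of all genes. With rIL-4, 6 log2 fold changes were negative and 4 positive, between -0.41 for Gbp3 and 1.61 for Tgtp1, with a median of -0.03. With rIL-13, 4 were negative and 6 positive, between -0.75 for Gbp7 and 1.23 for Tgtp1, with a median of 0.11. Medians over all genes were -0.06 and -0.00. The 95% intervals were wide, from -1.56 to 1.55 for Gbp5 with rIL-4 for example, so that the absence of calls does not show that levels were equal. The microglia libraries also moved in their markers: the microglia sum was 5501 to 9984 CPM with PBS, 2476 to 6639 CPM with rIL-13 and 2251 to 3848 CPM with rIL-4. In the same order, the monocyte-derived macrophage sum was 3200 to 4200, 6872 to 10448 and 17029 to 26840 CPM. Chil3 of that list had 50.4 to 251, 4626 to 6817 and 11483 to 20631 CPM. Endothelial markers summed to 710 to 1584, 1349 to 2389 and 1659 to 2110 CPM. Fibroblast and pericyte markers summed to 2279 to 3318, 1081 to 7198 and 206 to 1389 CPM. The part of these lists in the microglia values was not tested.

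Gbp7 had 32.5, 36.8 and 33.3 CPM in the microglia of PBS mice 1, 2 and 3, 14.6, 24.9 and 21.3 CPM with rIL-13 and 17.9, 28.3 and 37.7 CPM with rIL-4. The rIL-13 group lay below the PBS group without overlap (log2 fold change -0.75 ± 0.29, edgeR adjusted p = 0.584), and 16% of all genes did not overlap in that comparison. The rIL-4 group spanned the PBS values (-0.27 ± 0.29, adjusted p = 0.771). Gbp9 had 24.9, 10.5 and 19.4 CPM with PBS, 27.3, 11.0 and 38.8 CPM with rIL-13 and 20.9, 46.8 and 43.5 CPM with rIL-4. Its groups overlapped, and its log2 fold change of 1.05 ± 0.50 with rIL-4 had an adjusted p of 0.341. The value for Gbp9 with rIL-13 was 0.50 ± 0.50 (adjusted p = 1.000).

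Tgtp1 had 10.3, 14.4 and 1.54 CPM in PBS microglia, 8.75, 25.8 and 26.6 CPM with rIL-13 and 11.1, 38.8 and 28.5 CPM with rIL-4. PBS mouse 3 was far below the rest. Tgtp2, which shares most of the sequence of Tgtp1, had 5.80, 12.2 and 9.42 CPM in the same 3 libraries. The log2 fold change of Tgtp1 was 1.61 ± 0.76 with rIL-4 (adjusted p = 0.337) and 1.23 ± 0.75 with rIL-13 (0.867). Iigp1 had 11.0, 16.5 and 13.2 CPM with PBS, 12.5, 37.1 and 17.6 CPM with rIL-13 and 11.4, 24.2 and 9.89 CPM with rIL-4, with overlapping groups and log2 fold changes of 0.19 ± 0.47 with rIL-4 and 0.73 ± 0.47 with rIL-13. Mouse 9 was the highest of the rIL-4 group for both effectors, and mouse 6 the highest of the rIL-13 group for Iigp1.

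The other GBPs of the chromosome 3 cluster overlapped between treatments in microglia. Gbp2 had 38.2, 51.1 and 38.7 CPM with PBS, between 24.8 and 70.5 CPM with rIL-13 and between 27.9 and 55.5 CPM with rIL-4, with log2 fold changes of -0.05 ± 0.37 (rIL-4) and 0.23 ± 0.37 (rIL-13). Gbp3 had 41.1, 34.1 and 33.5 CPM with PBS, between 18.4 and 44.8 CPM with rIL-13 and between 16.8 and 39.4 CPM with rIL-4 (-0.41 ± 0.37 and -0.27 ± 0.37). The 95% interval of the Gbp3 difference with rIL-4 ran from -1.26 to 0.43. Gbp5 had between 3.84 and 7.81 CPM with PBS, between 2.58 and 11.5 CPM with rIL-13 and between 2.32 and 7.75 CPM with rIL-4, with log2 fold changes of -0.00 ± 0.69 and 0.04 ± 0.69.

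Among the regulators in microglia, Irgm1 had between 59.5 and 71.2 CPM with PBS, between 34.4 and 61.9 CPM with rIL-13 and between 39.9 and 62.3 CPM with rIL-4 (-0.35 ± 0.25 with rIL-4 and -0.38 ± 0.25 with rIL-13). Igtp had between 26.2 and 32.7 CPM, between 17.5 and 29.1 CPM and between 12.5 and 41.9 CPM in the same order (-0.23 ± 0.41 and -0.49 ± 0.41). Irgm2 had between 29.3 and 40.1 CPM, between 22.8 and 55.7 CPM and between 35.1 and 44.8 CPM (0.24 ± 0.31 and 0.19 ± 0.31). All their groups overlapped.

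**Figure D2:**
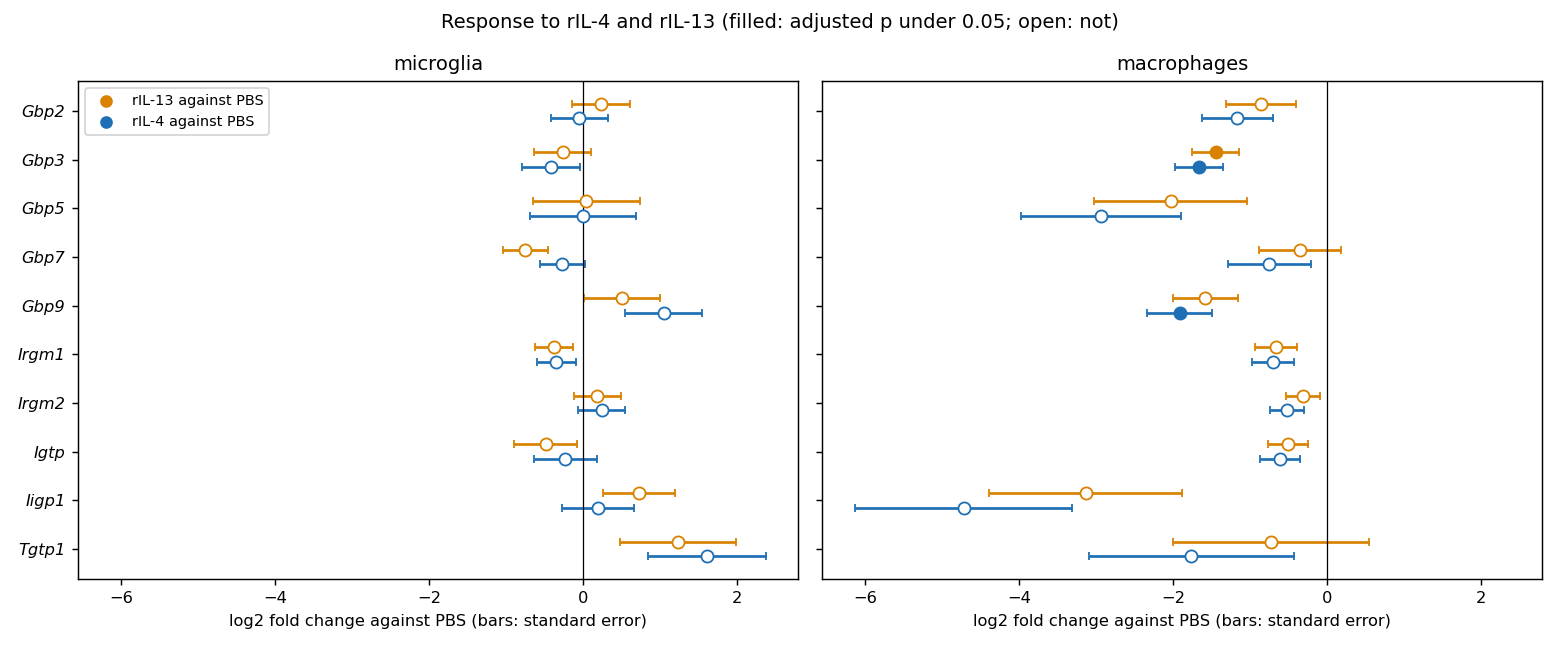
Log2 fold change against PBS for rIL-13 and rIL-4 in microglia and macrophages (x axis, bars are standard errors, filled points passed an adjusted p of 0.05). All 20 macrophage points lie below 0, of which 3 are filled, whereas microglia points lie on both sides of 0 and none is filled.

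The cytokines were also compared with each other. Between rIL-4 and rIL-13 no GTPase gene was called in either cell type by edgeR or by DESeq2, none had an unadjusted p under 0.05, and no gene's groups were without overlap. How many genes of any kind were called depended on the test. In edgeR's test it was 0.0385% in microglia and 0.25% in macrophages, and in DESeq2's Wald test 3.78% and 3.09%. Of all genes, 11.4% and 11.1% had an unadjusted p under 0.05 in edgeR's test, and 12.3% and 14.4% did not overlap. In macrophages all 10 differences had the sign of a lower rIL-4 level, between -1.59 ± 1.51 for Iigp1 and -0.04 ± 0.27 for Irgm1. The intervals are wide enough to hold a difference in either direction: for Gbp3 the 95% interval of the difference ran from -0.90 to 0.46, and for Gbp9 from -1.26 to 0.60. In microglia the log2 differences lay between -0.54 ± 0.47 for Iigp1 and 0.54 ± 0.50 for Gbp9, and 6 were positive.

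Next, microglia and macrophages of the same mice were compared. All 10 genes had a higher mean level in microglia in each treatment, and the difference passed the test for 8 of them with PBS, 8 with rIL-4 and 7 with rIL-13. Among all genes, 24.5%, 13.4% and 17.2% were called higher in microglia, and 40.9%, 23.4% and 26.7% were called in either direction. The groups did not overlap for 7, 8 and 7 of the genes (8 in each treatment without the TMM factors), against 54%, 41.5% and 45.3% of all genes. With the cytokines, these counts include Gbp5, Iigp1 and Tgtp1, which had few macrophage counts and passed the filter through the microglia libraries. A minimum of 10 counts in every library leaves them out. Then 5 genes were called with rIL-4 and 4 with rIL-13, where 22.5% and 23.6% of all genes were called in either direction. Irgm1 and Igtp were called in none of the treatments. In PBS mouse 3 both were lower in microglia than in macrophages (Irgm1 71.2 and 78.4 CPM, Igtp 32.3 and 37.3 CPM). Igtp was also lower in microglia of rIL-13 mouse 5 (17.5 and 17.8 CPM) and rIL-4 mouse 10 (12.5 and 16.0 CPM).

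The effector IRGs stood farthest apart. In PBS mice, Iigp1 had 13.5 ± 2.74 CPM in microglia and 0.983 ± 0.191 CPM in macrophages (SD, n = 3), a log2 difference of 3.74 ± 0.32 (SE, edgeR adjusted p = 4.87e-05). Tgtp1 had a log2 difference of 3.99 ± 0.85 (adjusted p = 0.00520), with PBS mouse 3 low in microglia as given above. Of the GBPs, Gbp5 differed by 2.84 ± 0.55 (adjusted p = 0.00328), Gbp2 by 1.85 ± 0.32 (0.00201), Gbp7 by 1.61 ± 0.26 (0.00138), Gbp3 by 1.32 ± 0.24 (0.00243) and Gbp9 by 1.13 ± 0.36 (0.0331). Gbp9 is the one called gene whose PBS groups overlapped, since microglia of mouse 2 had 10.5 CPM and macrophages of mouse 3 had 11.3 CPM, and without the TMM factors they did not overlap (12.3 and 10.6 CPM).

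Of the regulators, Irgm2 differed by 0.84 ± 0.20 with PBS (edgeR adjusted p = 0.00851). Irgm1 had 66.9 ± 6.41 CPM in PBS microglia and 57.7 ± 21.3 CPM in PBS macrophages, a log2 difference of 0.19 ± 0.25 (adjusted p = 0.595) whose 95% interval ran from -0.38 to 0.75. Igtp had 30.4 ± 3.63 and 27.1 ± 10.6 CPM, a log2 difference of 0.14 ± 0.28 (adjusted p = 0.737, interval from -0.49 to 0.77). Without PBS mouse 1, 5 of the genes remained called in PBS mice, and Gbp9 (log2 difference 0.70, adjusted p = 0.262), Irgm2 (0.53, 0.0632) and Tgtp1 (3.53, 0.0591) were lost, while 34.5% of all genes were called in place of 40.9%. The PBS call of Tgtp1 was also lost without mouse 2 (3.19, adjusted p = 0.0505), and that of Gbp9 without mouse 3 (1.39, 0.0591) and with all 18 libraries in one model (1.17, 0.0933).

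With rIL-4, the differences were 2.61 ± 0.40 for Gbp3 (edgeR adjusted p = 0.00312), 3.00 ± 0.41 for Gbp2 (0.00193), 4.13 ± 0.50 for Gbp9 (0.00108), 2.12 ± 0.45 for Gbp7 (0.0123) and 1.63 ± 0.23 for Irgm2 (0.00229). The fitted values of Gbp5 (5.82 ± 1.02), Iigp1 (8.71 ± 1.09) and Tgtp1 (7.41 ± 1.3) rest on 12, 4 and 18 macrophage counts in all and depend on the prior count, with values up to 6.58, 11.74 and 12.64 when 1 mouse was left out. Without mouse 10, Gbp5 (adjusted p = 0.0642) and Gbp7 (0.107) were not called, and 12.9% of all genes were in place of 23.4%. With rIL-13, Gbp2 differed by 3.00 ± 0.52 (adjusted p = 0.00503), Gbp3 by 2.55 ± 0.40 (0.00338), Gbp9 by 3.27 ± 0.54 (0.00415), Irgm2 by 1.39 ± 0.37 (0.0277) and Gbp5, Iigp1 and Tgtp1 by 4.97 ± 1.18, 7.67 ± 1.18 and 5.99 ± 0.86, on 20, 11 and 33 macrophage counts. The Irgm2 call with rIL-13 was lost without each of the 3 mice in turn (adjusted p between 0.0538 and 0.0969). Gbp7 did not pass there (1.26 ± 0.55, adjusted p = 0.139), while it passed with the mouse as a block (1.51, adjusted p = 0.0358). Irgm1 differed by 0.57 ± 0.23 with rIL-4 and 0.52 ± 0.29 with rIL-13, and Igtp by 0.54 ± 0.42 and 0.20 ± 0.27. Without mouse 7, Iigp1 alone was called in rIL-13 mice (7.22, adjusted p = 0.0467), and the calls among all genes fell from 26.7% to 8.44%.

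**Figure D3:**
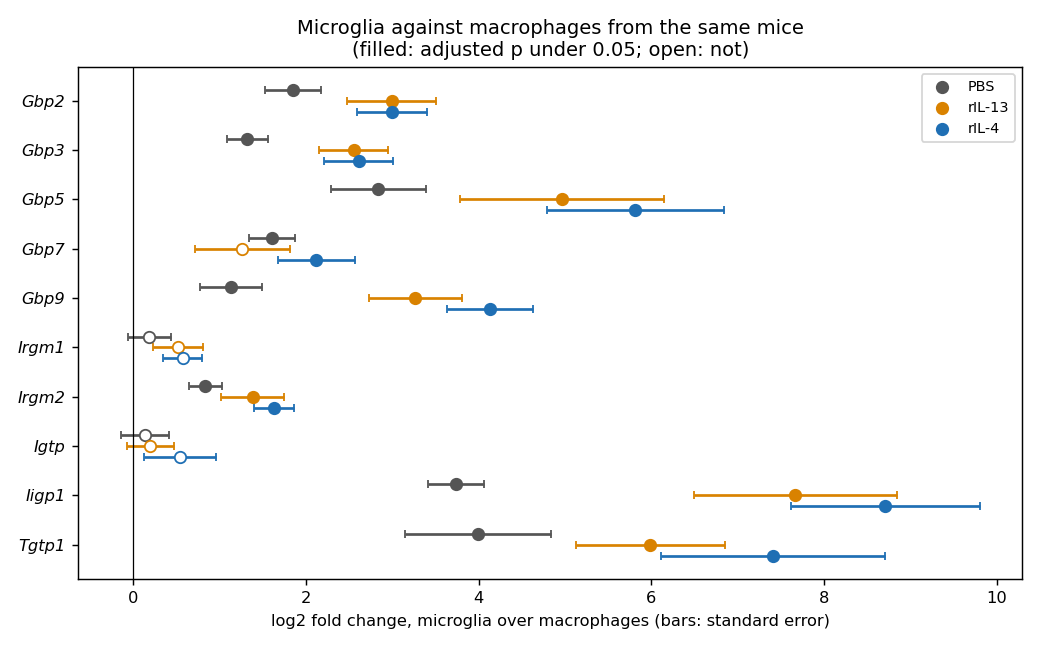
Log2 fold change of microglia over macrophages from the same mice in the 3 treatments (x axis, bars are standard errors, filled points passed an adjusted p of 0.05). All points lie above 0, and those of Irgm1 and Igtp are open in each treatment.

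The libraries of the 2 cell types also differed in markers of other cells, given above for PBS mice. With rIL-13 the endothelial sum was 1349 to 2389 CPM in microglia and 109 to 184 CPM in macrophages, and with rIL-4 it was 1659 to 2110 CPM and 157 to 330 CPM, with all 6 markers detected in each group. The fibroblast and pericyte sum was 1081 to 7198 CPM and 3.07 to 7.06 CPM with rIL-13 and 206 to 1389 CPM and 0.230 to 0.809 CPM with rIL-4, with all 8 markers detected except Lum in rIL-4 macrophages. Astrocyte markers summed to 108 to 204 CPM in PBS microglia against 11.4 to 14.9 CPM in PBS macrophages, while with rIL-13 (82.7 to 277 CPM in microglia) and rIL-4 (75.8 to 160 CPM) they overlapped the macrophage sums given above. The sum of 5 neuron markers was 9.38 to 17.0 CPM in PBS microglia and 0.671 to 0.973 CPM in PBS macrophages, and it was higher in microglia with both cytokines as well. Neutrophil markers were lower in microglia, with 149 to 203 CPM with PBS, 87.4 to 259 CPM with rIL-13 and 104 to 171 CPM with rIL-4. The sort on CD45, CD11b and F4/80 is meant to remove such cells. The part of these lists in the higher microglia levels was not tested.

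**Figure D4:**
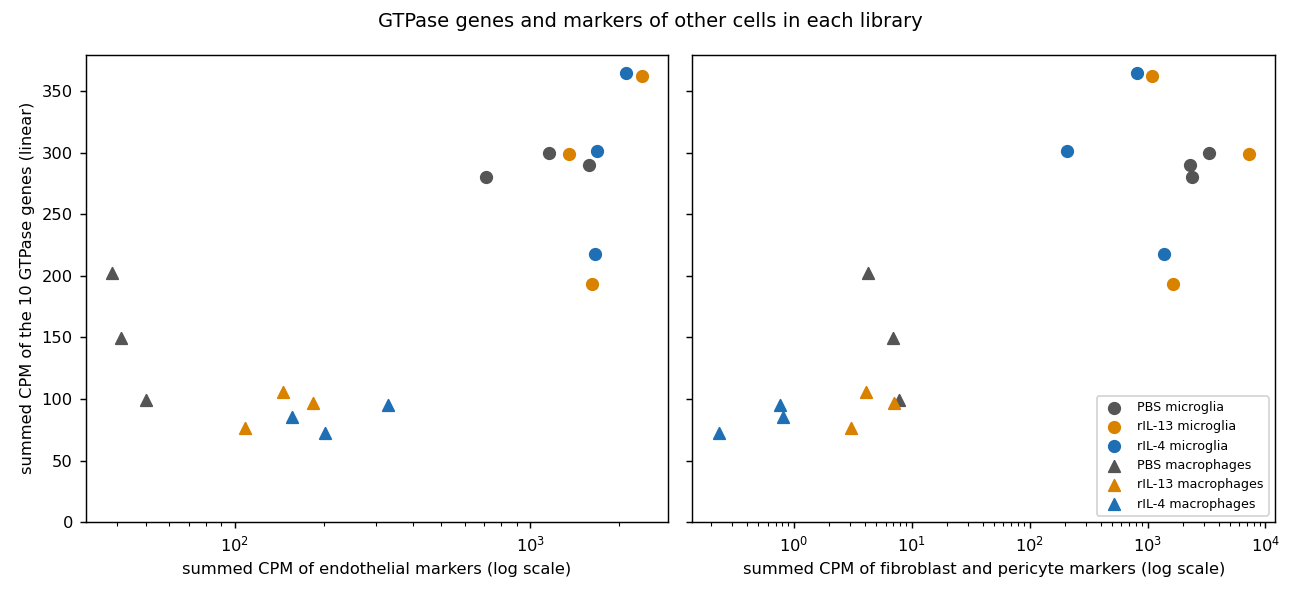
Summed CPM of the 10 GTPase genes (y axis, linear) against the summed CPM of 6 endothelial markers (left) and of 8 fibroblast and pericyte markers (right, both x axes logarithmic) in each library, with circles for microglia and triangles for macrophages. The cell types are separated on both marker axes, with no marker sum shared between them.

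Whether the cytokine response differed between the cell types was tested as the microglia response minus the macrophage response. No GTPase gene was called for rIL-4 or for rIL-13 in edgeR's test, where 0.992% and 0.0242% of all genes were called. All 10 differences were positive for rIL-4, and 5 had an unadjusted p under 0.05 (Gbp3, Gbp5, Gbp9, Iigp1 and Tgtp1), against 12.4% of all genes. For rIL-13, 9 were positive and 3 had an unadjusted p under 0.05 (Gbp3, Gbp9 and Iigp1), against 5.83%. Gbp9 came nearest for rIL-4, with a difference of 2.94 ± 0.70 (adjusted p = 0.0602) from a response of 1.05 in microglia and -1.92 in macrophages. Iigp1 differed by 4.90 ± 1.31 (adjusted p = 0.0990), Tgtp1 by 3.35 ± 1.5 (0.370), Gbp5 by 2.91 ± 1.3 (0.369) and Gbp3 by 1.23 ± 0.51 (0.328). With 1 mouse left out, the values ran from 2.14 to 8.59 for Tgtp1, from 4.6 to 7.94 for Iigp1, from 2.54 to 3.64 for Gbp5 and from 0.67 to 1.57 for Gbp3, and those of Tgtp1, Iigp1 and Gbp5 rest on the few macrophage counts given above. DESeq2's Wald test called Gbp9 and Iigp1 for rIL-4 and Iigp1 for rIL-13, where it called 4.28% and 0.957% of all genes. Without mouse 6, edgeR called Gbp9 (2.94, adjusted p = 0.0281) and Iigp1 (4.90, 0.0243) for rIL-4, and 1.41% of all genes. With the mouse as a block none was called (Gbp9 adjusted p = 0.0716, Iigp1 0.0598). The genes with a low unadjusted p changed in that edgeR fit. Gbp3 had 0.0846 for rIL-4 and 0.0967 for rIL-13. Gbp2 had 0.0216 and 0.0244, against 0.109 and 0.108 without the block.

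Genes around the GTPases were described from fixed lists, with the members left out. The ligand gene Ifng had a single count in the 18 libraries together, in the rIL-4 macrophages of mouse 8, and was not tested. T and NK cell markers, whose cells are the classical source of IFN-γ, summed to at most 4.24 CPM in any library. The receptor gene Ifngr1 had 185, 192 and 195 CPM in PBS macrophages, 327, 435 and 362 CPM with rIL-13 and 363, 490 and 347 CPM with rIL-4. It rose in macrophages with rIL-4 (1.07 ± 0.16, edgeR adjusted p = 0.00216) and rIL-13 (0.98 ± 0.16, adjusted p = 0.00883). In microglia its log2 fold changes were -0.14 ± 0.25 and 0.14 ± 0.25. Ifngr2, the other receptor chain, had values between -0.09 and 0.18 in these 4 comparisons, with no call.

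Socs1, a feedback inhibitor of JAK-STAT signalling, rose with both cytokines in both cell types. In microglia it had 1.03, 1.83 and 1.29 CPM with PBS, 8.68, 9.68 and 8.63 CPM with rIL-13 and 17.8, 25.8 and 17.2 CPM with rIL-4, and in macrophages 2.26, 1.98 and 3.06 CPM, 11.8, 24.98 and 8.26 CPM and 18.3, 44.7 and 22.9 CPM. Its log2 fold change with rIL-4 was 3.90 ± 0.38 in microglia (edgeR adjusted p = 0.00138) and 3.55 ± 0.47 in macrophages (0.00102), and with rIL-13 it was 2.70 ± 0.36 (0.0148) and 2.62 ± 0.45 (0.0104). Jak2, the receptor-bound kinase, rose in macrophages with rIL-4 (2.56 ± 0.26, adjusted p = 0.000247) and rIL-13 (1.84 ± 0.25, 0.00369). Irf1, a transcription factor that acts on ISREs, was not called in any of these comparisons (0.36 ± 0.15 with rIL-4 in macrophages, adjusted p = 0.154).

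In macrophages with rIL-4, 4 of 14 tested genes of the IFN-γ receptor and JAK-STAT list rose (Socs1, Jak2, Ifngr1 and Ptpn2), with a median of 0.02, and Irf8 was among those that fell. For these lists the background is as above, 7.2% of all genes lower and 6.77% higher with rIL-4, and 1.66% lower and 2.53% higher with rIL-13. With rIL-13, 3 rose (Jak2, Ifngr1 and Socs1). Of 21 other IFN-γ target genes, 4 fell with rIL-4, Cybb (-1.36 ± 0.19, adjusted p = 0.00139), Cxcl10 (-3.30 ± 0.47, 0.00154), Bst2 (-1.004 ± 0.23, 0.0161) and Fcgr1 (-1.304 ± 0.30, 0.0176), and Cd274 rose (0.96 ± 0.18, 0.00559). The median of that list was -0.14, nearer to 0 than that of the GTPases. Cybb encodes a subunit of the phagocyte oxidase and Cxcl10 a chemokine. Cxcl10 and Cybb also fell with rIL-13.

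Of the other interferon-inducible GTPase genes, 20 were in the file and 13 were tested in macrophages. With rIL-4, 5 of these fell and none rose: Tgtp2 (-2.37 ± 0.54, adjusted p = 0.0167), Gm5431 (-1.15 ± 0.30, 0.0274), 9930111J21Rik2, 9930111J21Rik1 and Mx2. Their median was -1.11, and with rIL-13 it was -0.83 with none called in edgeR's test. Among 20 type I interferon stimulated genes, 6 fell with rIL-4, among them Ifit3b (-3.63 ± 0.61, adjusted p = 0.00362), Ifit3 (-3.26 ± 0.62, 0.00658), Ifit2 (-2.81 ± 0.57, 0.00934) and Cmpk2 (-1.64 ± 0.40, 0.0219), with a median of -1.36. With rIL-13, 3 fell (Ifit3b, Ifit3 and Ifit2), with a median of -0.93.

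Of 10 inflammasome genes, with a median of -0.77, 5 fell with rIL-4 in macrophages, among them Casp1 (-0.78 ± 0.15, adjusted p = 0.00782), Aim2 (-0.75 ± 0.17, 0.0163), Naip2 (-0.65 ± 0.17, 0.0267) and Nlrp3 (-1.56 ± 0.40, 0.0282), and Aim2 fell with rIL-13 (-0.71 ± 0.17, 0.0468). Of 18 genes for the loading of GBPs and IRGs (ATG8 conjugation, prenylation and ubiquitin), Map1lc3a (-0.99 ± 0.26, adjusted p = 0.0315) and Sqstm1 (-0.51 ± 0.15, 0.0431) fell with rIL-4 and none with rIL-13, a count near the background. Their medians were 0.01 and 0.01. As a check of the treatment, 14 of 18 IL-4 and IL-13 response genes rose and 2 fell with rIL-4, and 11 rose with rIL-13, led by Retnla, Mrc1, Mgl2 and Pdcd1lg2.

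In microglia, no gene of the other GTPases, the type I interferon stimulated genes, the loading genes or the inflammasome genes was called with either cytokine in edgeR's test. Beside Socs1, the called IFN-γ genes were Socs3 (-0.89 ± 0.17 with rIL-4, edgeR adjusted p = 0.0282), Fcgr1 (-1.20 ± 0.23 with rIL-4, 0.0303) and the serpin gene Serpina3g, which rose with rIL-4 (7.11 ± 0.59, 0.000748) and rIL-13 (6.33 ± 0.57, 0.00229). Serpina3g had 3.52, 2.37 and 1.06 CPM in PBS microglia and between 117.9 and 439.6 CPM in the 6 cytokine libraries. It also had the larger response in microglia than in macrophages, by 5.23 ± 0.84 for rIL-4 (adjusted p = 0.00812) and 5.53 ± 0.87 for rIL-13 (0.0402). The IL-4 and IL-13 response genes answered in microglia too, with 9 of 17 higher with rIL-4 and 5 with rIL-13.

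**Figure D5:**
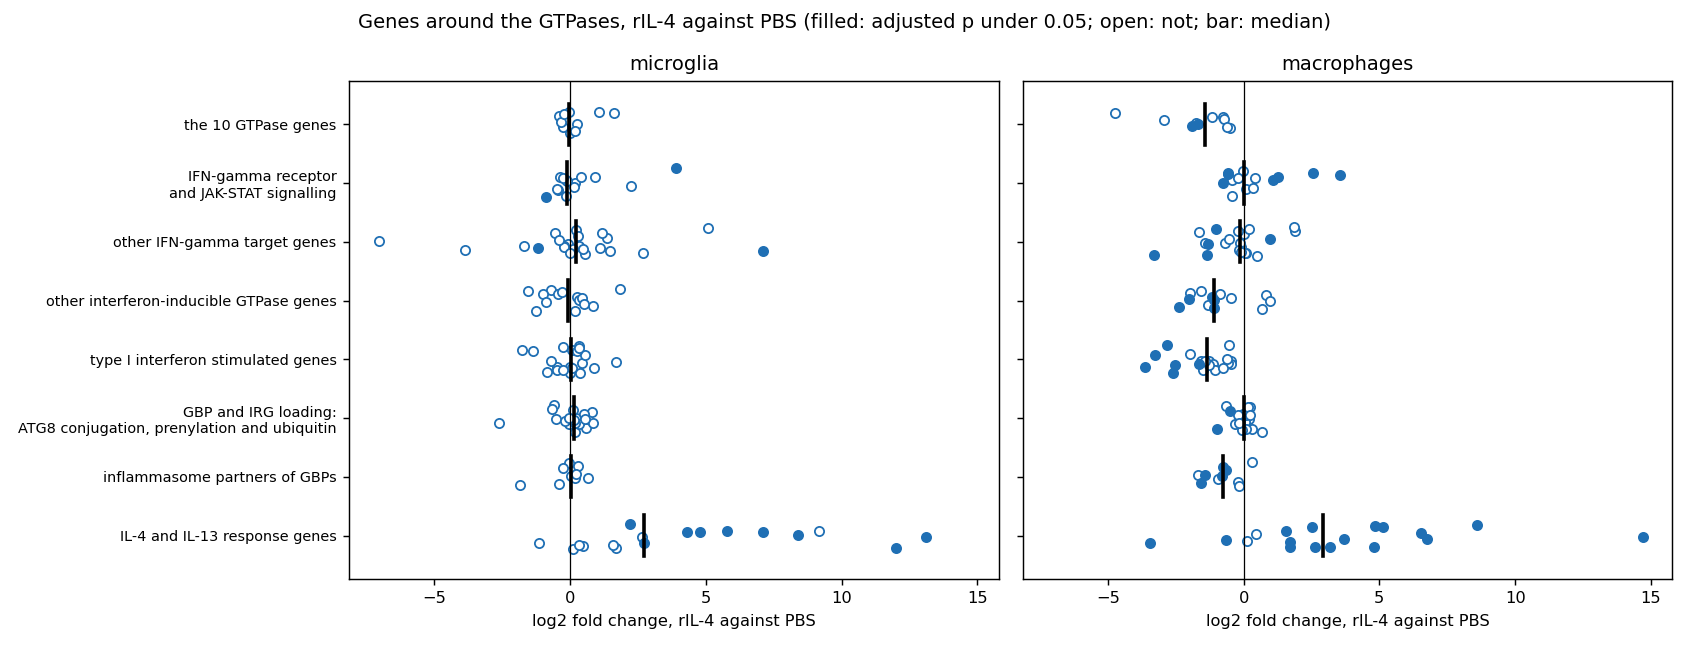
Log2 fold change with rIL-4 against PBS (x axis) for the 10 GTPase genes and the 7 lists around them in microglia and macrophages, with filled points for an adjusted p under 0.05 and bars for medians. In macrophages the medians of the GTPases (-1.42), the other GTPases (-1.11), the type I interferon stimulated genes (-1.36), the inflammasome genes (-0.77) and the other IFN-γ targets (-0.14) lie below 0, and those of the IFN-γ signalling and loading lists lie at 0.02 and 0.01.

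Between the cell types, 4 of 14 relatives of the 10 genes were higher in microglia of PBS mice, a share near the 24.5% of all genes called higher: Gbp4 (3.83 ± 0.56, edgeR adjusted p = 0.000777), Gbp10 (5.76 ± 1.22, 0.00522), Gm4951 (4.02 ± 0.89, 0.00639) and Gbp6 (2.00 ± 0.59, 0.0241). With rIL-4, 3 of 14 were higher in microglia (Gbp4, Gbp6 and Tgtp2) and 1 was lower (Irgc1). With rIL-13, 4 of 13 were higher (Gbp4, Gbp6, Tgtp2 and Gm4951) and 0 lower. Among all genes, 13.4% and 17.2% were called higher. Of 22 other IFN-γ targets tested in PBS mice, 11 were lower in microglia and 2 higher, where 16.3% of all genes were called lower. With rIL-4, 5 of 21 were lower and 2 higher, and with rIL-13 5 of 22 were lower and 2 higher. Of the 20 type I interferon stimulated genes, 4 were lower and none higher with PBS, 7 were higher and none lower with rIL-4, and 4 were higher and 1 lower with rIL-13. Among all genes, 13.4% were called higher and 9.97% lower with rIL-4, and 17.2% higher and 9.46% lower with rIL-13. The 4 of 20 called higher with rIL-13 are thus near the background.

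The genes also varied among themselves from mouse to mouse. Over the 9 macrophage libraries, Pearson's r of log2 CPM was positive in 45 of 45 pairs of the 10 genes, with a median of 0.73. Over the 9 microglia libraries it was positive in 31 of 45 pairs, with a median of 0.25 and values between -0.42 and 0.82. These are descriptions, and the libraries of a cell type share treatment, depth and the other cells in the sort. Among 13000 genes compared in both cell types, those most like the mean of the 10 genes, by the lower of their correlations over 9 libraries each, were Por (r = 0.80 in microglia and 0.92 in macrophages), Sema6a (0.85 and 0.80), Pex13 (0.83 and 0.78), Ece1 (0.78 and 0.90), Gad1-ps (0.78 and 0.78), Trim47 (0.76 and 0.75), Tgfa (0.79 and 0.75) and Tgtp2 (0.74 and 0.90).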

How the data were processed

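Reads of 76 bases from SMART-seq2 libraries, which carry no molecular identifiers and no strand, had been mapped to GRCm38 with STAR 2.5.3a, and per the labels gene counts came from RSEM 1.3.0. The authors deposited these estimated counts as whole numbers without normalization, and the annotation release is not given in the sources used here. Of 53465 gene identifiers, 53274 were in the GENCODE M21 annotation used for positions and exon lengths. Levels are CPM with TMM factors over the 18 libraries.

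Differential expression was tested with edgeR 4.0.16 (R 4.3.3): filterByExpr, TMM, the quasi-likelihood test and Benjamini-Hochberg adjustment over all genes kept, at a threshold of 0.05. All 10 genes passed the filter in each comparison. Cytokine responses were fitted on the 9 libraries of a cell type, cell types on the 6 libraries of a treatment, and differences between responses on all 18. Standard errors were taken from the F statistic. The fit was checked on simulated data. DESeq2 1.42.0 served as an alternative. Microglia and macrophages came from the same mice, so that the mouse numbers pair the libraries. The main tests held no term for the mouse, and a fit with the mouse as a block was an alternative. Over the genes tested in both cell types, the correlation of the paired libraries' deviations from the group means was between 0.03 and 0.12. It describes those genes together and does not show how far the 10 genes are paired.

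The 10 genes, the lists and the tests were chosen with earlier results of these data known. All 10 genes were named in each comparison. From each list the called genes were named, at most 4 by the lowest p, and always Ifng, Ifngr1, Ifngr2, Irf1 and Socs1, and any further called gene was named after its values were seen. The 8 genes most like the 10 by correlation were named. Correlations of log2 CPM used a prior count of 2. Promoters are from RefSeq. A gene of the fixed lists is not reported here.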

Additional observations from a re-analysis of the deposited data

How the results depend on the processing

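For 58 of the 110 values (10 genes in 11 comparisons), the direction and the side of the threshold were the same in each setting run. In macrophages with rIL-4, 4 genes were called in place of 2 by DESeq2's Wald test and by a fit of only the 6 libraries compared (Gbp3, Gbp5, Gbp9 and Iigp1 both times, with 19.6% and 14.6% of all genes called in place of 14%), 3 without the low-count filter and 3 with all 18 libraries in one model (Gbp3, Gbp9 and Iigp1 both times, with 8.72% and 6.37% of all genes called), and between 1 and 4 when 1 mouse was left out. In macrophages with rIL-13, the count of 1 became 2 without the low-count filter and with DESeq2's Wald test (Gbp3 and Gbp9 both times, with 3.26% and 8.56% of all genes called in place of 4.19%), and 0 with all 18 libraries in one model (1.55%), and it was between 0 and 2 when 1 mouse was left out. For the difference of the rIL-4 responses, 1 gene (Gbp9) was called without the filter and 1 with a minimum of 10 counts in every library, 2 by DESeq2's Wald test, where 0.655%, 1.39% and 4.28% of all genes were called in place of 0.992%, and between 0 and 2 with 1 mouse left out. For rIL-13, DESeq2's Wald test called 1, and 0.957% of all genes in place of 0.0242%. The minimum of 10 counts left 5 called in the cell type comparison with rIL-4 and 4 with rIL-13, with 22.5% and 23.6% of all genes called. Gbp5, Iigp1 and Tgtp1 were not tested there. With 1 mouse left out, the cell type comparison called between 5 and 7 genes with PBS, between 6 and 8 with rIL-4 and between 1 and 6 with rIL-13. The lowest count with PBS came without mouse 1, where 34.5% of all genes were called in place of 40.9%. With rIL-4 it came without mouse 10 (12.9% in place of 23.4%), and with rIL-13 without mouse 7 (8.44% in place of 26.7%). Counts in microglia stayed at 0 in each setting. Where not stated otherwise, the cause was not tested. Leaving out a mouse leaves a group of 2, and depth limits Iigp1, Gbp5 and Tgtp1 in macrophages, with 0 to 39 counts a library. For the cytokine responses of macrophages, the ranges with 1 mouse left out stand without the share of all genes called. They are therefore not a result about the 10 genes. With the counts of Tgtp1 and Tgtp2 summed, an alternative chosen after seeing the data, 3 genes were called in macrophages with rIL-4 (Gbp3, Gbp9 and the sum), and the other counts did not change.

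With the mouse as a replicate block, Gbp7 was added to the cell type calls with rIL-13 (8 genes) and no other call changed. Igtp's difference of the rIL-13 responses turned to -0.09 with the block. No value that passed the threshold changed its sign. Of the 110 values, 28 that had not passed did so when 1 mouse was left out, 15 of them in microglia. In microglia with rIL-4, the lowest and highest log2 fold changes were -0.35 and 0.16 for Gbp2, -0.27 and 0.37 for Gbp5, -0.81 and 0.09 for Igtp and -0.33 and 0.42 for Iigp1. With rIL-13 they were -0.09 and 0.56 for Gbp2, -0.81 and 0.40 for Gbp5 and -0.23 and 0.44 for Irgm2. Between rIL-4 and rIL-13 they were -0.61 and 0.04 for Gbp2, -0.52 and 0.27 for Gbp3, -0.41 and 0.80 for Gbp5, -0.19 and 0.19 for Irgm1, -0.20 and 0.47 for Irgm2, -0.32 and 0.58 for Igtp, -1.06 and 0.02 for Iigp1 and -0.03 and 0.74 for Tgtp1. In macrophages, Gbp7 had -1.05 and 0.05 with rIL-13. Between rIL-4 and rIL-13, values were -0.70 and 0.21 for Gbp2, -0.42 and 0.03 for Gbp3, -0.81 and 0.30 for Gbp7, -0.18 and 0.18 for Irgm1, -0.36 and 0.02 for Irgm2, -0.21 and 0.00 for Igtp and -4.99 and 3.43 for Iigp1. Between cell types with PBS, values were -0.00 and 0.41 for Irgm1 and -0.05 and 0.38 for Igtp. Differences between responses had -0.12 and 0.61 for Igtp with rIL-4, and with rIL-13 -0.66 and 0.14 for Gbp7 and -0.23 and 0.19 for Igtp.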
